A study of Mus musculus with 20 samples.

Results

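The sites described here carried a C/EBPβ peak after induction in both the wild-type and the mutant line and had no peak in induced wild-type cells given a PARP inhibitor or in either line before induction. They number 410 of the 23854 sites that result when the peaks of all 5 deposited peak lists are merged. A site is a stretch where peaks of any lists overlap by at least 1 bp, and a list holds the site when it contributed a peak. The calls of the 5 lists chose these sites, so their presence and absence are a description and no finding.

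The cells were 3T3-L1, a mouse preadipocyte line, in which doxycycline switches on the LAP isoform of C/EBPβ with an HA tag. The isoform was wild type in the line WT and had mutated PARylation sites in the line Mut. Cells were held for 2 days under contact inhibition and then received vehicle (WT -Dox, Mut -Dox) or 1 µg/ml doxycycline for 8 h (WT +Dox, Mut +Dox). In WT +Dox +BYK, WT cells received the PARP inhibitor BYK204165 1 h before doxycycline. Mutant cells given the inhibitor are not among the samples used here. Each condition had 2 ChIP and 2 input libraries, 20 libraries in all. The antibody was against C/EBPβ, so the cells' own protein and the induced one are not told apart. Whether a line was 1 clone is not stated in these sources. The peaks of a condition come as 1 list that names no replicates, so differences between conditions carry no replicate error and no p-value, and the depth behind the lists is unknown.

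C/EBPβ is a basic leucine zipper (bZIP) transcription factor that binds DNA as a dimer and acts early in fat cell differentiation, where it switches on Pparg and Cebpa. Its LAP isoform carries the activation domain. PARP-1 attaches chains of ADP-ribose to proteins, a modification called PARylation, and the study asked how this modification bears on C/EBPβ.

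Of the 410 sites, 46 overlapped the 250 bases before a RefSeq start site, where promoter sequence was at hand. The following windows come from the sites with the highest scores among these 46, with Jun and Dnajb6 added after their values were seen. They are RefSeq sequence on GRCm38.p6, the coordinates of mm10, 5′ to 3′ towards the gene, and stretches inside a protein-coding gene span are left out. Capitals mark matches on either strand to a C/EBP motif (TTGCNNAA), an ATF4 element (TGATGNAA), AP-1 (TGANTCA), the core of a cAMP response element, CRE (TGACGT), or the Jun promoter element TGACATCA.
Slc25a12, chr2:71367782-71368005, minus strand: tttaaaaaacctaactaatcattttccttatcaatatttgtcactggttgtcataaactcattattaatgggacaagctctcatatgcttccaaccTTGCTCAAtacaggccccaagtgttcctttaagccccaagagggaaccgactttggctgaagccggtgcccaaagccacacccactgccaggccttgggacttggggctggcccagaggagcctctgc
Pum3, chr19:27429909-27430158, minus strand: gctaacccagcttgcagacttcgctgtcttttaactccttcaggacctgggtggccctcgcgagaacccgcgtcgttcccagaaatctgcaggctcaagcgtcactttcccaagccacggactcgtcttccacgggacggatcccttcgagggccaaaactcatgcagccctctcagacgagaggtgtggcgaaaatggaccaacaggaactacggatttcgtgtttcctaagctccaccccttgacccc
Elp4, chr2:105904565-105904637, minus strand: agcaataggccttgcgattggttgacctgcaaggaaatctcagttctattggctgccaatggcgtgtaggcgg
Txnip, chr3:96557707-96557956, plus strand: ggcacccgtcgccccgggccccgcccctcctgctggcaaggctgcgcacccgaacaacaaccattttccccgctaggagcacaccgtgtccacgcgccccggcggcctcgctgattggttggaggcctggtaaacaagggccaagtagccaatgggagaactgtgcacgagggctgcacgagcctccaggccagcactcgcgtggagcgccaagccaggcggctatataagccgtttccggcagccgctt
Maff, chr15:79346371-79346620, plus strand: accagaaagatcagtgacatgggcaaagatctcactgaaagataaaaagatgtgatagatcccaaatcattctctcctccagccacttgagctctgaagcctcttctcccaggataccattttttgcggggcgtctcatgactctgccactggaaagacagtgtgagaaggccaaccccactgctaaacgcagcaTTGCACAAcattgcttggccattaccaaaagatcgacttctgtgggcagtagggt
Jun, chr4:95052223-95052472, minus strand: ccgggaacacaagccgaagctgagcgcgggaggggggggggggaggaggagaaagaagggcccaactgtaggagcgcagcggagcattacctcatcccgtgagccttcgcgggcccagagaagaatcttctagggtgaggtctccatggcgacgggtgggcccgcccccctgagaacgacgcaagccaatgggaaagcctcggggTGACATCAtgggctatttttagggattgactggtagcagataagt
Dnajb6, chr5:29735648-29735897, plus strand: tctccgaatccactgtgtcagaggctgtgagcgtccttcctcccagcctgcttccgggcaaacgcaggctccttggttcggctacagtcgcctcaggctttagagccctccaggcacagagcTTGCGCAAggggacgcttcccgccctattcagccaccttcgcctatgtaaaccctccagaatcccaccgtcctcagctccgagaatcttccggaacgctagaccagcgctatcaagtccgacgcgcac

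The windows were chosen by score and not for their letters, except those of Jun and Dnajb6. Jun was shown as a list gene with a site near its start, and the element marked in it was added to the motifs after that window was read. Hnrnpc and Srsf11 met the same rule and are not printed. The window of Hnrnpc holds none of the marked motifs. That of Srsf11, which lies mostly inside gene spans, holds a CRE core match. Dnajb6, a chaperone gene, was shown because its window holds the full C/EBP palindrome TTGCGCAA. Slc25a12, which encodes a mitochondrial aspartate-glutamate carrier, and Maff, which encodes a small bZIP protein, each hold 1 C/EBP motif match. Jun, an AP-1 subunit, holds the element TGACATCA, which is known to bind AP-1 and ATF dimers. The printed windows of Pum3, a gene for an RNA-binding protein, Elp4, a gene for an Elongator subunit, and Txnip, a gene whose product restrains glucose uptake, hold none of these matches. A C/EBP motif match of the full Elp4 window spans the end of the printed stretch and is not marked. The window of Gpat3, an enzyme gene of triglyceride synthesis, was also among the 6 of highest score and lies inside a gene span. A match is a description of the letters and shows no bound site.

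A microRNA gene, Mir199a-2, lies within 1 of the 410 sites. The site on chromosome 1 from 162217122 to 162217923 contains the mature sequences of Mir199a-2 and lies 5.85 kb from Mir214. Both belong to the same transcript, Dnm3os, which runs inside the gene Dnm3. The peak scored 70.32 in WT +Dox and 53.2 in Mut +Dox, at ranks of 27.7 and 5.19 in these lists. An inhibitor peak lay 0.769 kb from the site. The mature sequences are shown with the seed, bases 2 to 8, in capitals.
mmu-miR-199a-5p: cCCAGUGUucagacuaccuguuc
mmu-miR-199a-3p: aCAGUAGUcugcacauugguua
mmu-miR-214-5p: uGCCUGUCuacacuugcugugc
mmu-miR-214-3p: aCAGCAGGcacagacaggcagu

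The 4 seeds differ from each other. Mir698, 1.81 kb from a site at Inpp5b, was the other microRNA gene within 10 kb of a site. Altogether 2 of the 410 sites had a microRNA hairpin at that distance. The search covered the 410 sites only, so no share of other sites stands beside this count and nothing is read from it.

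The sites were a small share of what both induced lines had in common. Of the 10772 sites that both induced lines held, 410 (3.81%) were absent from the other 3 lists, and 648 (6.02%) were absent from the inhibitor list whatever the uninduced lists held. Of the 2815 such sites without a peak before doxycycline, 2405 also had a peak with the inhibitor and 410 (14.6%) did not. The last 2405 are called the sites of all 3 induced conditions below. For all of WT +Dox, 1302 of 12283 sites (10.6%) were absent from the inhibitor list. These counts come from the calls that chose the sites, and nothing is read from them.

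Scores were low in both lists. The score is the authors' value for each peak, without a stated scale, and its lowest value lies at 50 in every list, so it was used only within a list. In WT +Dox the scores of the 410 sites ran from 50.04 through a median of 61.6 to 149.73, where the list as a whole reached 1335.04. In Mut +Dox they ran from 50.1 through 75.8 to 232.83, where the list reached 2087.26. As ranks within the list, with 0 the lowest and 100 the highest, the medians were 18.1 in WT +Dox and 31.1 in Mut +Dox. The sites of all 3 induced conditions had median ranks of 34.9 and 49.5 in those lists and 52.3 in the inhibitor list. Low ranks were not particular to the 410 sites. In WT +Dox the median rank was 12.7 for sites of WT +Dox alone and 18.9 for sites of WT +Dox and the inhibitor list only. In Mut +Dox it was 17.9 for sites of Mut +Dox alone and 29.5 for sites of Mut +Dox and the inhibitor list only. There were 31 sites above the median of WT +Dox, 70 above that of Mut +Dox and 14 above both. A score under 60 was found at 186 sites (45.4%) in WT +Dox and at 104 in Mut +Dox.

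The share without an inhibitor peak was higher at low scores. Among sites of both induced lists without a peak before doxycycline, 276 of 1102 (22.6 to 27.7% by the Wilson interval) lacked an inhibitor peak at WT +Dox ranks of 0 to 25. The share was 103 of 1025 (10.0%) at ranks of 25 to 50, 31 of 594 (5.22%) at 50 to 75 and 0 of 94 at 75 to 100, where the Wilson interval reaches 3.93%. By rank in Mut +Dox the shares were 26.0, 19.0, 6.91 and 0.735% in the same order. These shares describe the calls, since score and presence come from the same lists.

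**Figure D1:**
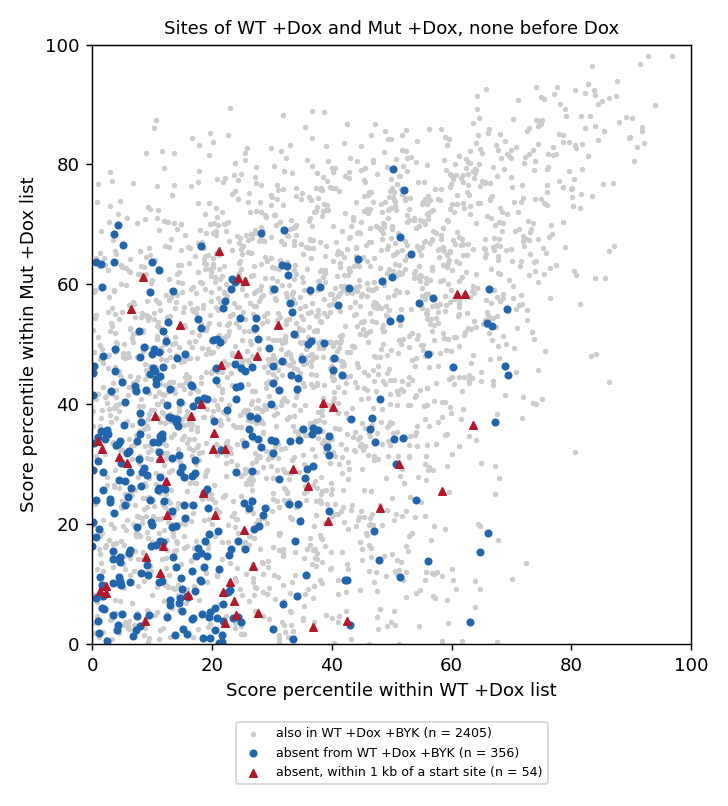
Score percentile within the Mut +Dox list (vertical) against that within the WT +Dox list (horizontal) for sites of both lists without a peak before doxycycline; 1 point is 1 site. The 410 sites absent from WT +Dox +BYK (blue, or red triangles for the 54 within 1 kb of a start site) reach percentile 69.4 in WT +Dox and 79.3 in Mut +Dox, while the 2405 sites also found with the inhibitor (grey) reach 96.9 and 98.2. The blue points include 6 sites on chromosome 18, where start sites were not analysed.

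At the chosen sites both lists placed the peak at nearly the same position. The choice of sites required the WT +Dox and Mut +Dox peaks to overlap, which limits how far apart their centres can lie. Centre distances and overlaps are not given for other groups of sites, so they are a description and no finding. The centres of the WT +Dox and Mut +Dox peaks of a site were a median of 46 bp apart, and 326 of 410 sites (79.5%) had centres within 100 bp. At 232 sites the WT +Dox peak lay wholly inside the Mut +Dox peak, and at 21 the reverse held. The smallest overlap was 472 bp. The Mut +Dox peak was the wider one at 338 sites, with median widths of 897 bp in Mut +Dox and 778 bp in WT +Dox. The medians of the whole lists were 937 and 835 bp.

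The order of the sites by score differed between the lines. Spearman's rho between the 2 scores was 0.21 over the 410 sites and 0.39 over the 2405 sites of all 3 induced conditions, given as a description; the range of scores is narrower in the first group, and each list's sites share 1 peak call. The rank was higher in Mut +Dox at 271 sites (66.1%), against 69.1% among the sites of all 3 induced conditions. The site inside Nfia, a transcription factor gene of the fat cell lineage, on chromosome 4 from 97885326 to 97886349 scored 52.5 in WT +Dox and 172.01 in Mut +Dox. Its ranks in these lists were 4.30 and 69.9. The site nearest Minpp1 on chromosome 19 from 32550338 to 32552390 scored 141.76 and 83.83. Its ranks were 67.3 and 37.1, the other way round. Both examples were chosen after their values were seen.

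The edges of the rule were as follows. The nearest excluded peak to any of the sites belonged to the inhibitor list and lay 21 bp from the site inside Gpr176, which scored 53.71 in WT +Dox and 50.67 in Mut +Dox. The next gaps were 94, 116, 129 and 168 bp. Just outside the rule, a site inside Stard13 was left out by an inhibitor peak that shared 50 bp with an induced peak and scored 102.49. Among sites of all 3 induced conditions, the lowest inhibitor scores were 50.04 inside Slc4a4, 50.06 inside Ldlrad4 and 50.07 near Nhs. The Slc4a4 site scored 119.93 in WT +Dox.

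Inhibitor peaks were often found in the neighbourhood. The gap to the nearest WT +Dox +BYK peak had a median of 19.8 kb, and 87 sites (21.2%, Wilson interval 17.5 to 25.4) had such a peak within 5 kb and 24 within 1 kb. The median gap was 34.3 kb to WT -Dox and 60.1 kb to Mut -Dox, which are shorter lists of 10959 and 6898 peaks against 18371. Sites of WT +Dox alone had an inhibitor peak within 5 kb in 17.7% (14.7 to 21.2) and sites of Mut +Dox alone in 23.5% (22.0 to 25.1). The interval of the 410 sites overlaps that of each other group, while those of WT +Dox alone and Mut +Dox alone do not overlap. All intervals here are at 95% and cover counting error only, and neighbouring sites are not independent.

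**Figure D2:**
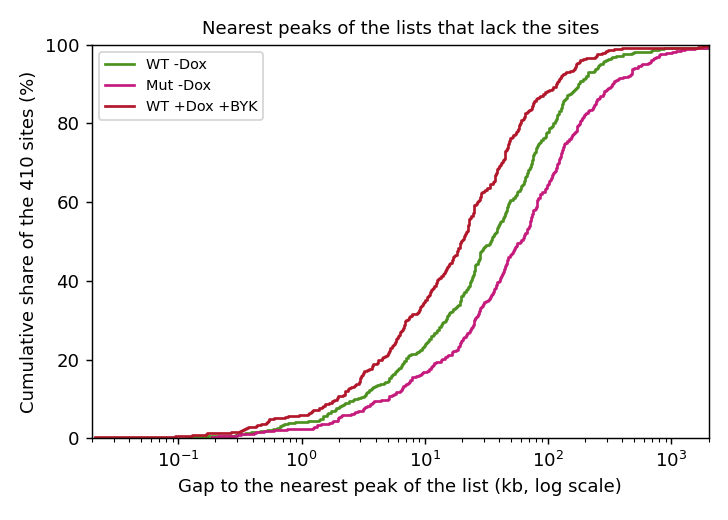
Cumulative share of the 410 sites (vertical, percent) by the gap to the nearest peak of each list that lacks them (horizontal, kb, log scale). The line of WT +Dox +BYK, the longest list, runs leftmost with a median of 19.8 kb, followed by WT -Dox at 34.3 kb and Mut -Dox at 60.1 kb.

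The share of sites near gene starts was above that of the sites of all 3 induced conditions, with intervals that do not overlap, and its interval overlapped those of several other groups. Of 410 sites, 52 (12.7%, 9.80 to 16.3) were within 1 kb of an end of a protein-coding gene, against 124 of 2405 sites of all 3 induced conditions (5.16%, 4.34 to 6.11) and 8.76% of all merged sites. Within 1 kb of a RefSeq start site, which includes those of noncoding genes, lay 54 of the 404 sites on chromosomes with listed starts (13.4%, 10.4 to 17.0). The share was 6.42% (5.49 to 7.50) for the sites of all 3 induced conditions, 5.80% for sites of Mut +Dox and inhibitor only and 9.16% for all merged sites. Sites of WT +Dox alone had 15.6% (12.7 to 19.0), with an interval that overlaps that of the 410 sites. Sites of WT +Dox and the inhibitor list only had 12.2% (9.64 to 15.2) near a start and 13.2% near a gene end, which also overlap the intervals of the 410 sites. The 5209 sites of all 5 lists had 11.2%, inside the interval of the 410. The share of none of these 3 groups is told apart from that of the 410 sites by these intervals.

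**Figure D3:**
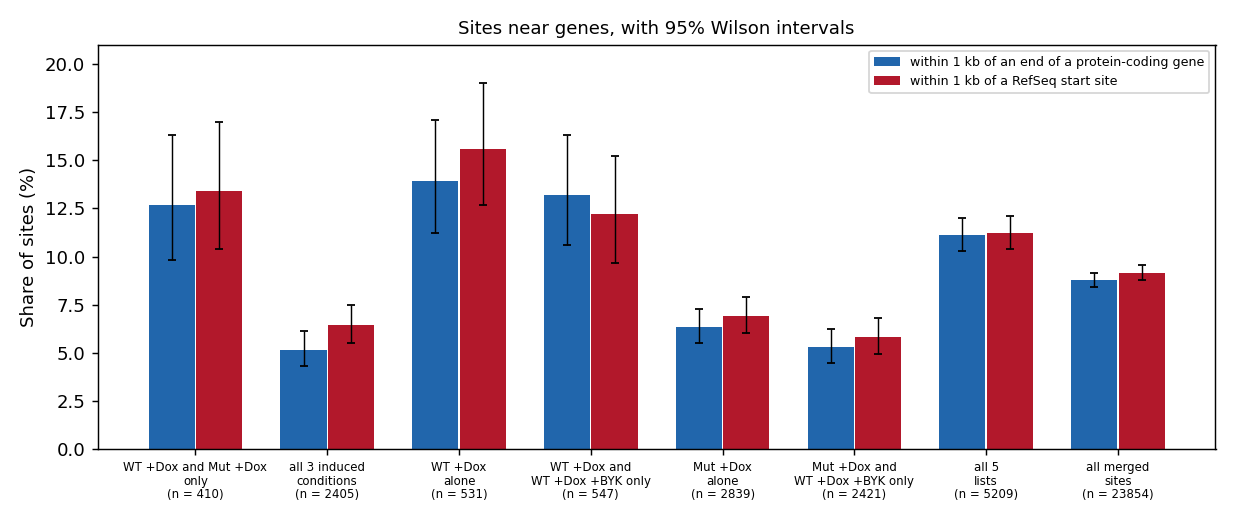
Share of sites (vertical, percent) within 1 kb of an end of a protein-coding gene (blue) and of a RefSeq start site (red) by the lists that hold them, with 95% Wilson intervals; n is the number of sites. The 410 sites stand at 12.7 and 13.4%, beside 13.9 and 15.6% for WT +Dox alone, 13.2 and 12.2% for WT +Dox and the inhibitor list only and 5.16 and 6.42% for all 3 induced conditions.

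The share was above that of the sites of all 3 induced conditions in each of the 3 lower rank bands of both lists. The bands and the start-site distances were chosen after the data were seen. At WT +Dox ranks of 0 to 25, 35 of 271 sites (12.9%, 9.43 to 17.4) were within 1 kb of a start, against 49 of 786 (6.23%, 4.75 to 8.15). At ranks of 25 to 50 the shares were 13.7% (8.36 to 21.7) and 7.22% (5.70 to 9.12), and at 50 to 75 they were 16.1% (7.09 to 32.6) and 6.10% (4.38 to 8.44). The intervals overlap in the last 2 of these bands. By rank in Mut +Dox the shares were 13.7 and 8.41% at 0 to 25, 13.3 and 6.48% at 25 to 50 and 13.2 and 6.02% at 50 to 75, with overlapping intervals in the first and the third. Sites within 1 kb of a start scored much like the others, with median ranks of 21.6 against 17.3 in WT +Dox and 29.6 against 31.9 in Mut +Dox. Of those 54, 11 (20.4%) had an inhibitor peak within 5 kb, against 21.4% of the other sites.

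**Figure D4:**
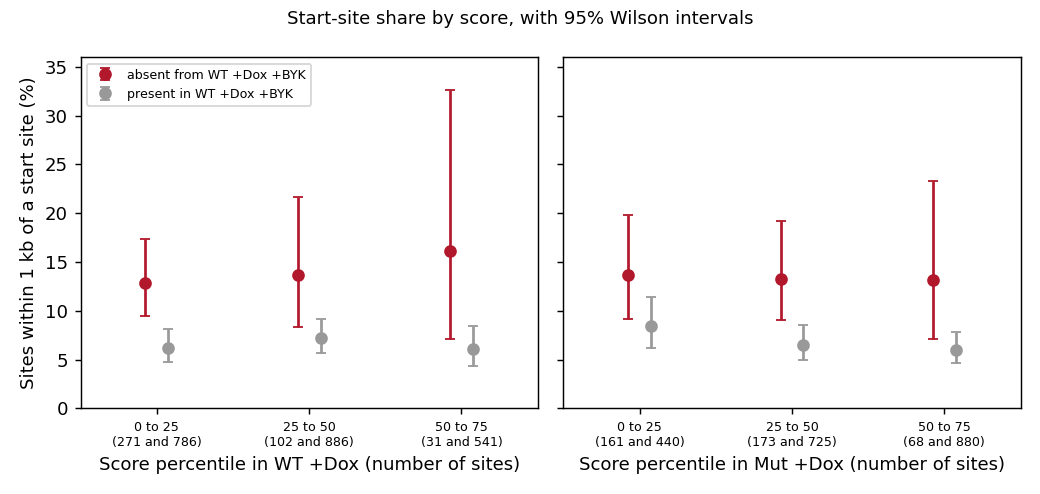
Share of sites within 1 kb of a start site (vertical, percent, with 95% Wilson intervals) by rank band of the WT +Dox list (left) and of the Mut +Dox list (right), for sites of both lists without a peak before doxycycline. Sites absent from the inhibitor list (red) stand between 12.9 and 16.1%, those present in it (grey) between 6.02 and 8.41%; the band of 75 to 100 held 0 and 2 of the absent sites and is not drawn.

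Position relative to whole genes differed less. Of the 410 sites, 215 (52.4%, 47.6 to 57.2) lay inside a protein-coding gene span, against 49.3% of the sites of all 3 induced conditions and 48.3% of all merged sites. There were 85 sites (20.7%) more than 50 kb from any such gene, against 21.3 and 22.3%. The median distance to a start was 23.3 kb, against 25.2 kb for the sites of all 3 induced conditions.

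Examples of genes with a site within 1 kb of a start follow. Those other than Slc25a12, Pum3, Gpat3, Srsf11 and Hnrnpc were chosen after their values were seen, and no common function of the genes was tested. Examples with a part in metabolism were Slc25a12, at 125.63 in WT +Dox and 127.73 in Mut +Dox, Phgdh, the first enzyme of serine synthesis, at 115.98 and 69.48, Gpat3 at 101.44 and 74.34, and Acss2, an acetyl-CoA synthetase, at 84.23 and 87.45. Examples with a part in transcription were Med6, a Mediator subunit, at 69.56 and 58.44, Gtf2e1, a subunit of the general factor TFIIE, at 66.73 and 52.96, and Kat2b, an acetyltransferase, at 56.67 and 75.78. Wwtr1, the coactivator TAZ that restrains Pparg, stood at 50.92 and 77.61. Examples with a part in RNA or ribosomes were Pum3 at 122.12 and 127.74, Urb1 at 129.42 and 83.09, Srsf11 at 54.72 and 136.51, Hnrnpc at 80.06 and 51.68 and Rpl9 at 63.43 and 77.64. Nthl1, a glycosylase of base excision repair, stood at 64.81 and 55.47. Only Slc25a12 and Pum3 of these scored above 100 in both lists.

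Promoters that serve 2 genes in opposite directions were among them. Of the 46 sites with a promoter window, 9 (19.6%, 10.7 to 33.2) overlapped windows on both strands, against 8 of 119 (6.72%, 3.45 to 12.7) for the sites of all 3 induced conditions and 13.9% (11.1 to 17.2) for those of all 5 lists. Sites of WT +Dox alone had 12 of 61 (19.7%). The interval of the 410 sites overlaps those given, and this count was chosen after the data were seen. The pairs were Pum3 and C030016D13Rik, Elp4 and Immp1l, Srsf11 and Lrrc40, Fggy and Gm40206, Trappc11 and Rwdd4a, Jun and Junos, Rpl9 and Lias, Nthl1 and Tsc2, and Gtf2e1 and Rabl3. A peak at such a promoter cannot be given to 1 of the genes.

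The 61 windows of the 46 sites were rich in CpG. Their median number of CpG was 16, with quartiles of 8 and 20, against 8 (3 to 15.25) in the windows of the sites of all 3 induced conditions, 16 in those of WT +Dox alone, 13 in those of all 5 lists and 6 in all 32817 windows. Median GC content was 58.4%, against 53.8% at the sites of all 3 induced conditions, 59.6% at those of WT +Dox alone, 55.6% at those of all 5 lists and 52.4% in all windows. Windows of alternative starts share bases, so these are descriptions.

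In all 19 motifs were searched, and the shares below are given beside those of all windows. A C/EBP motif (TTGCNNAA) was found in 9 of 61 windows (14.8%, 7.96 to 25.7), against 22.3% (16.3 to 29.7) at the sites of all 3 induced conditions, 24.0% (20.9 to 27.5) at those of all 5 lists and 9.57% of all windows. Windows of WT +Dox alone held this C/EBP motif in 14.3% (8.37 to 23.3). The palindrome TTGCGCAA, which is contained in that motif, was in 2 windows (3.28%), both of Dnajb6 and sharing the match. It was in 0 of 148 windows of the sites of all 3 induced conditions and 3.92% of those of all 5 lists. The share was 1.19% for WT +Dox alone and 0.165% of all windows. The GC box (GGGCGG) was in 54.1% (41.7 to 66.0), against 35.8, 48.0 and 32.7%, and the ETS motif (CCGGAAG) in 11 of 61 windows (10.4 to 29.5%), against 5.41, 11.6 and 6.90%, in the order of sites of all 3 induced conditions, sites of all 5 lists and all windows. Windows of WT +Dox alone, which are not drawn, held these motifs in 51.2 and 20.2%. The CRE core was in 11.5% (5.67 to 21.8), against 8.78, 10.7 and 6.46%, and in 15.5% of the windows of WT +Dox alone. The windows of the 410 sites with this core include overlapping ones of 3830406C13Rik and of Zfand2b, so they are not independent. AP-1 was in 3.28% (0.904 to 11.2), against 12.2, 5.65 and 6.75%, and in 7.14% of the windows of WT +Dox alone. The CCAAT box (CCAAT) was in 36.1%, against 33.8% of all windows. The Jun promoter element was added after the data were seen. It was in 4 of 61 windows (6.56%, 2.58 to 15.7), against 2.03, 1.26 and 2.93% in the same order and 1.19% for WT +Dox alone. The overlapping windows of Jun and Junos share 1 match, so the 4 windows hold 3 distinct matches, and 1 of them is the match that led to the motif. The ATF4 element was in 0 of 61, against 6.76, 6.28 and 3.45% in that order and 1.19% for WT +Dox alone.

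**Figure D5:**
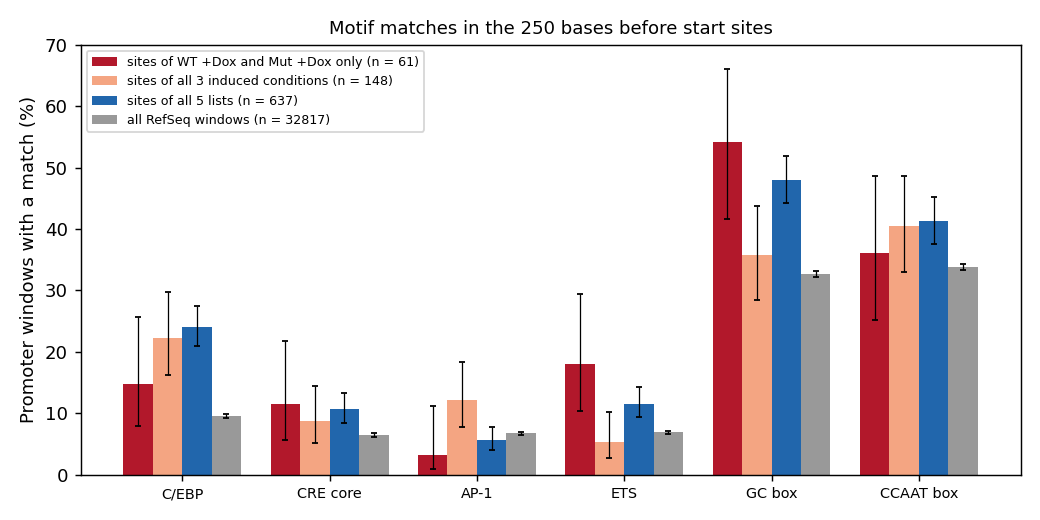
Share of promoter windows (vertical, percent, with 95% Wilson intervals) that hold a motif on either strand, for windows overlapped by the 410 sites (red, 61 windows), by sites of all 3 induced conditions (148), by sites of all 5 lists (637) and for all RefSeq windows (32817). For the CRE core, the GC box and the ETS motif the bars of the 410 sites are the tallest of the 4 drawn (11.5 and 54.1% for the first pair, 11 of 61 windows for ETS), with intervals that overlap those of the sites of all 5 lists. Windows of WT +Dox alone are not drawn and held these motifs in 15.5, 51.2 and 20.2%, so the height is not particular to the 410 sites.

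The 10 sites with the highest mean rank had WT +Dox scores of 100.01 to 148.97 and Mut +Dox scores of 113.85 to 232.83. The highest was a site of 2416 bp on chromosome 16 from 56297120 to 56299535, 24.6 kb from Impg2, with 100.01 in WT +Dox and 232.83 in Mut +Dox. The nearest inhibitor peak lay 7.81 kb away. The next was 30.8 kb from Dph6 on chromosome 2 (114685225 to 114686387), with 102.99 and 205.38.

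Other sites among these 10 were as follows. Col14a1, which encodes a fibril-associated collagen, had a site inside the gene on chromosome 15 (55339960 to 55340874) with 138.25 in WT +Dox and 130.67 in Mut +Dox. Mrtfb, a coactivator of serum response factor, had one 20.2 kb away on chromosome 16 (13436732 to 13438638) with 148.97 and 121.26, and no inhibitor peak within 64.0 kb. Il6st, which encodes gp130, the signalling subunit of the interleukin 6 receptor, had one 23.8 kb away on chromosome 13 (112439816 to 112440720) with 137.33 and 114.94. There an inhibitor peak lay 2.25 kb off. St3gal1, a sialyltransferase gene, had one inside the gene with 139.94 and 113.85. The others were nearest Heatr5a (101.81 and 162.82) and Wwp2, a ubiquitin ligase gene (104.98 and 151.39). Slc25a12 on chromosome 2 (71366573 to 71368326) and Pum3 on chromosome 19 (27429245 to 27430561) were those at a start site, 306 and 5 bp from it.

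Of 21887 protein-coding genes, 633 (2.89%) had at least 1 of the sites within 50 kb of the gene span, 306 (1.40%) within 10 kb, and 385 (1.76%) were the nearest gene of a site. For comparison, 2877 genes (13.1%) had a site of all 3 induced conditions and 13354 (61.0%) any merged site within 50 kb. Genes were grouped in 18 lists of 465 matched genes. Of these 465, 29 (6.24%) had 1 of the sites within 50 kb. Several lists were also above the 61.0% of all genes for any merged site within 50 kb. Examples are 21 of 26 transcription factors of fat cell formation, 31 of 32 bZIP genes and 39 of 41 acute phase and inflammatory genes. The neuronal list had 12 of 20 and the hepatocyte list 11 of 21.

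Among transcription factors of fat cell formation, 4 of 26 genes (15.4%) had a site, against 2.89% of all genes. In the same list, 8 (30.8%) had a site of all 3 induced conditions, against 13.1% of all genes, so the list was above the background in both. Pparg, the nuclear receptor at the centre of fat cell formation, had 1 of the sites among 20 merged sites within 50 kb. It lay inside the gene on chromosome 6 from 115405881 to 115407006, 15.6 kb from a start, and scored 99.63 in WT +Dox and 136.59 in Mut +Dox. An inhibitor peak lay 4.40 kb away, and 5 of the 20 sites were sites of all 3 induced conditions. Nfia had 2 of the sites inside the gene, the second with 54.18 and 63.76. Nfib, which encodes a related factor, had one inside the gene with 74.53 and 54.2. Nr1h3, a sterol-sensing nuclear receptor, had one 47.6 kb away, nearest Pacsin3.

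The lipid and secreted factor list had 4 of 32 genes with a site (12.5%), and 6 (18.8%) with a site of all 3 induced conditions. Cd36, the fatty acid transporter, had a site inside the gene on chromosome 5 (17876370 to 17877269) with 56.32 in WT +Dox and 93.84 in Mut +Dox, where no inhibitor peak lay within 122 kb. Acaca, the enzyme that makes malonyl-CoA, had one inside the gene with 54.18 and 52.86. Fasn, fatty acid synthase, had one 9.47 kb away at the start of Dus1l, and Scd2, a desaturase, one 45.4 kb away at an end of Pkd2l1. Fabp4, Adipoq and Lpl, further genes of the fat cell, had 0.

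Of the AP-1 and other bZIP genes, 3 of 32 (9.38%) had a site and 6 (18.8%) a site of all 3 induced conditions. Jun had one at its start on chromosome 4 from 95051844 to 95053492, with a WT +Dox score of 61.79 and a Mut +Dox score of 88.19, and no inhibitor peak within 51.9 kb. Maff had one at its start on chromosome 15 from 79346105 to 79347089, with 73.44 and 114.33, and the nearest inhibitor peak 181 kb away. It was the only merged site within 50 kb of Maff. Crem, a cAMP-responsive factor, had one 45.1 kb away at Cul2. The list of immediate early and MAP kinase feedback genes, which does not hold Jun, had 0 of 29 genes with a site, although 8 (27.6%) had a site of all 3 induced conditions.

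Of the preadipocyte factors and inhibitors of fat cell formation, 3 of 30 (10.0%) had a site, and 9 (30.0%) a site of all 3 induced conditions. Id3, an inhibitor of basic helix-loop-helix factors, had one 3.41 kb away on chromosome 4 (136139816 to 136141007) with 55.79 in WT +Dox and 102.93 in Mut +Dox. This site also counts for E2f2 of the cell cycle list, and an inhibitor peak lay 1.21 kb from it. Lrp6, a Wnt coreceptor, had one 1.97 kb from the gene with 52.08 and 145.64. Sox9, a factor of early mesenchymal cells, had one 34033 bp away with 71.0 and 65.65. In the cell cycle list 3 of 27 genes (11.1%) had a site, none within 10 kb, and 5 (18.5%) a site of all 3 induced conditions. Besides E2f2 these 3 were Cdk6 and E2f4.

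The fibroblast and matrix list had 4 of 35 genes with a site (11.4%), 0 of them within 10 kb, while 14 (40.0%) had a site of all 3 induced conditions. Fbn1, fibrillin 1, had 2 sites 33.2 and 38.7 kb away that lay nearer Cep152, with 51.12 and 53.67 at the first and 68.24 and 78.65 at the second. Col1a2, a collagen I chain, had one 11.8 kb away with 50.52 and 80.17. Thbs2, thrombospondin 2, had one 17.0 kb away with 56.67 and 96.15. Mmp14, a membrane-bound matrix protease, had one 21.6 kb away at the start of Slc7a7, an amino acid transporter gene, with 60.39 and 85.22.

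Of the acute phase and inflammatory genes 3 of 41 (7.32%) had a site, and 13 (31.7%) a site of all 3 induced conditions. Nfkb1, an NF-κB subunit, had one inside the gene on chromosome 3 (135676051 to 135677170) with 55.15 in WT +Dox and 92.13 in Mut +Dox. Cxcl12, a stromal chemokine, had one 18.6 kb away with 57.23 and 69.84. Socs3, a feedback inhibitor of cytokine signalling, had one 17.0 kb away at Pgs1 with 55.03 and 52.34. Il6 had 0.

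Among glucocorticoid receptor targets, 1 of 18 genes (5.56%) had a site, and 5 (27.8%) a site of all 3 induced conditions. It was Bcl6, a transcriptional repressor, with a site inside the gene on chromosome 16 (23986326 to 23987615) at 63.35 in WT +Dox and 108.43 in Mut +Dox. An inhibitor peak lay 0.367 kb from it. Of the RNA processing genes, 2 of 33 (6.06%) had a site, Srsf11 and Hnrnpc, both splicing or hnRNP protein genes with the site at their start. A site of all 3 induced conditions was found at 5 (15.2%) of the list. Hnrnpc had no inhibitor peak within 117 kb and no other merged site within 50 kb.

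The remaining lists were at or near the background or had no site. Of the PARP and NAD genes 1 of 31 (3.23%) had one, Nmnat2, 26.7 kb away, and of the ribosomal and translation genes 1 of 35 (2.86%), Rpl5. A site of all 3 induced conditions was found for 19.4 and 20.0% of these lists. Parp1 and Nampt had 0. The C/EBP family genes (7), stress response genes (25) and the lists of neuronal (20), hepatocyte (21), skeletal muscle (18) and macrophage genes (18) had 0 genes with a site, where the number of genes in the list is given in brackets. Cebpa, Cebpb, Cebpd, Klf5 and Srebf1 had 0. In lists of this size, a share of 2.89% corresponds to at most 1 gene, so a count of 0 does not set a list apart.

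Few genes had more than 1 of the sites. There were 614 genes with 1, 18 with 2 and 1 with 3. Thada, a long gene on chromosome 17 (84190056 to 84466246), had 3 inside the gene, where the first 2 lie 1.02 kb apart. They scored 72.34 and 55.44 in WT +Dox and 88.19 and 52.99 in Mut +Dox. Dnm3, Gpr176, Mecom, Nfia, Nrg1, Rbpms and Stard13 had 2 inside the gene, with gene spans of 97.5 to 1084 kb, and were picked from the 18 after their positions were seen. In that order these genes had 19, 8, 22, 19, 30, 11 and 14 merged sites of any list within 50 kb, and Thada had 20. Genes with several sites are not counted here for other groups of sites, so no clustering is read from these numbers.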

How the data were processed

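ChIP for C/EBPβ and input were sequenced as 20 libraries of 3T3-L1 cells in 5 conditions. Bowtie, bedtools and mm10 appear in the submitters' processing notes, without versions or roles. Per the deposited files, each peak's name starts with MACS. How peaks were thresholded, whether input was used and how replicates were pooled is not stated. The 5 deposited lists give position and a score for each peak, the authors' own value with no stated scale. Scores were ranked within a list only. The depth is unknown.

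Peaks were merged at an overlap of 1 bp or more. Coordinates are 1-based. Gene spans (21887 protein-coding genes) and 32851 start sites come from RefSeq tables of GRCm38.p6. Start sites on chromosome 18 were not used here. Distances run from a site's midpoint, gaps from its edge. Of 467 list genes 465 were matched. Motifs were searched on both strands in the 250 bases before starts, 32817 windows. No test was made. Wilson intervals are at 95%. The merging and the choice of sites were tested on simulated data.

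The sites and gene lists were chosen with earlier results of these data known. Genes were named by rule: the 10 sites of highest mean rank, list genes with a site within 50 kb (by the rule in full only for sites inside or within 1 kb of the gene, so values of more distant sites go beyond it), genes with 2 or more sites (18 tied at 2, of which those with both inside are named), a panel of 12 genes and the 6 promoter windows of highest rank. Start-site distances, rank bands, the microRNA search, windows on both strands, CpG and GC content and 1 motif were added after seeing the data. Scripts ran in Python 3.11.15 with pandas 2.3.3, numpy 2.4.6, matplotlib 3.10.9 and scipy 1.17.1.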

Additional observations from a re-analysis of the deposited data

How the results depend on the processing

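No paired analysis was possible because each condition has 1 peak list without replicate numbers, and no replicate could be left out. Of 50 recomputed values, 31 stayed within 1.5 times the count or inside the interval of the value reported, and 19 did not. The shares within 1 kb of a gene end or start and inside genes were among the 31 under each alternative run. With a score of at least 60 required in both induced lists, 172 sites and 278 genes within 50 kb were left, with median ranks of 30.5 and 40.5 in WT +Dox and Mut +Dox and a median WT +Dox width of 816 bp. With that minimum in every list there were 312 sites, with ranks of 31.2 and 40.6, a width of 806 bp and an inhibitor peak of any score within 5 kb at 46.8%. Of the 312, 140 had a peak under 60 in a list counted as lacking them, 105 of them in the inhibitor list. With Mut +Dox shortened to 12384 peaks, 209 sites and 275 genes remained, with ranks of 21.4 and 44.9 and a width of 796 bp. The share with an inhibitor peak within 5 kb was 26.0% when peaks had to cover 50% of a site, 16.2% when no excluded peak could lie within 1 kb, and 34.9% for a distance of 10 kb. Genes with a site numbered 306 within 10 kb and 385 by nearest gene.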

Other observations

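By chromosome, the shares of the 410 sites are set beside those of all merged sites, and their differences were not tested. Chromosome 13 held 14 sites (3.41%, against 5.14% of all merged sites). Chromosome 2 held 41 (10.0%, against 8.84% of all merged sites), chromosome 6 held 38 (9.27%, against 7.69%) and chromosome 18 held 6 (1.46%, against 3.35%). These chromosomes were named without a rule, and others differed too. Examples are chromosome 15 (3.66%, against 5.19%) and chromosome 17 (5.12%, against 3.97%). Neighbouring sites within 50 kb of each other formed 9 pairs. A pair 3.88 kb apart lay nearest Itih5, with 77.58 and 96.15 in WT +Dox and 64.74 and 59.24 in Mut +Dox. A pair 33.5 kb apart lay nearest Adamts5, which encodes a matrix protease, with 53.29 and 63.83 in WT +Dox and 76.79 and 98.53 in Mut +Dox. These pairs were chosen after their values were seen.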
